A study of Mus musculus with 16 samples.

Results

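The 8 genes described here, Marco, Msr1, Mrc1, Clec7a, Cd68, Ctss, Itgax and Csf1r, are commonly used to recognise macrophages. They were followed through every probe set that the array annotation gives to them, which was 11 of the 45037 probe sets on the arrays. Msr1 had 4 probe sets and each of the other 7 genes had 1, and 0 of the 11 were shared with another gene. They were chosen by name, not by a cutoff on their values, with earlier results of these data known.

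Affymetrix mouse arrays measured RNA from mice lacking NM1 (knockout, KO) and from WT (wild-type) animals. The gene Myo1c encodes NM1, a nuclear myosin that acts in transcription, and the comparison asks what its loss does to gene expression. The 6 groups were KO and WT lungs with 3 mice each, KO and WT heart of the same 6 mice, and KO and WT skin fibroblasts, cultured cells with 2 samples each that carry other mouse numbers. Strain, age and sex, and the part of Myo1c removed, do not appear in the labels read here. Values are log2 signals as deposited, so a difference of 1 is a doubling, and the levels of different probe sets are not compared with each other. In tissue RNA, fewer cells of a type and less RNA per cell cannot be told apart.

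Across the series, the 4 probe sets of Myo1c averaged lower in KO than in WT samples in every tissue, with log2 differences of -1.61 to -1.15 for lungs. For heart they were -1.10 to -0.17, and for fibroblasts -1.70 to -1.22. Markers of the labelled tissues were in place. Sftpc, the surfactant gene of the alveolar epithelium, read 13.92 to 14.13 in lungs, Myl2, a ventricular myosin light chain, 13.83 to 13.98 in heart, and Col1a1, a collagen gene, 10.88 to 11.61 in fibroblasts. One array, KO heart 1602, was dimmer than the rest, since its upper quartile was 5.63 and that of the other hearts 6.17 to 6.31. Within lungs, the arrays KO 1586, KO 1603 and WT 1592 carried high adipocyte transcripts. Member values in heart and lungs are given with and without these arrays.

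Macrophages take up particles, microbes and dying cells through scavenger receptors and lectins, degrade them in lysosomes and present fragments to T cells. Alveolar macrophages live on the air side of the lungs and depend on the cytokine GM-CSF. In the mouse they are marked by high Itgax, Marco and Siglecf. Markers of the macrophages of the heart and the lung interstitium include Lyve1, Cd163 and complement C1q. The receptor encoded by Csf1r and its ligands keep most tissue macrophages alive, and the transcription factor PU.1, encoded by Spi1, acts on many macrophage promoters through sites with the core GAGGAA.

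The promoters of the members are shown because the PU.1 core can be looked for in them by its letters. For 6 of the 8 genes, all but Msr1 and Csf1r, the 150 bases before the start were read from RefSeq (assembly GRCm38.p6). Those of 4 genes follow, from 5' to 3' on the strand of the gene, with the PU.1 core in capitals (GAGGAA, or TTCCTC where it lies on the other strand). They are the 3 that hold the core, and Ctss, the gene with the largest difference between lungs and fibroblasts, which does not.
Marco: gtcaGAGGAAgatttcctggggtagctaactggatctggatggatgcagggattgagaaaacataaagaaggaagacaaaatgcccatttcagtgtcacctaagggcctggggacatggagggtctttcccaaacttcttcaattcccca
Mrc1: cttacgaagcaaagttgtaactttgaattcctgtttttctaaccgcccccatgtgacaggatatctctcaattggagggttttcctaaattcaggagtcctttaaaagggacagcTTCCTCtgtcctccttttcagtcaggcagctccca
Clec7a: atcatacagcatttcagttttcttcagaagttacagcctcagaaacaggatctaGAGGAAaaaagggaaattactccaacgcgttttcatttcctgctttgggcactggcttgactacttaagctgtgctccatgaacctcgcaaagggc
Ctss: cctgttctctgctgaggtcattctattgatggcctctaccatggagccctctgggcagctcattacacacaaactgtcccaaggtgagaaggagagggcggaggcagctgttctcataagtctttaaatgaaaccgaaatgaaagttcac
The windows lie at chr1:120505025-120505174 on the minus strand for Marco, chr2:14229264-14229413 on the plus strand for Mrc1, chr6:129472780-129472929 on the minus strand for Clec7a and chr3:95526636-95526785 on the plus strand for Ctss. The core began 146 bases before the start of Marco and 96 before the end of the window shown for Clec7a, and in Mrc1 it filled the bases 35 to 30 before the start. It was present, on either strand, in 3 of the 6 member promoters and in 14.5% of 32851 promoters of the same length. Cd68 and Itgax had no match to it. An AP-1 motif, TGANTCA, which reads the same on both strands and overlaps no core here, occurred 2 times before Cd68 and 1 time before Itgax, against 4.24% of all promoters. These are matches of letters and do not show that a factor binds there.

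All 8 genes were plotted by array to show their levels in the 3 tissues.

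**Figure D1:**
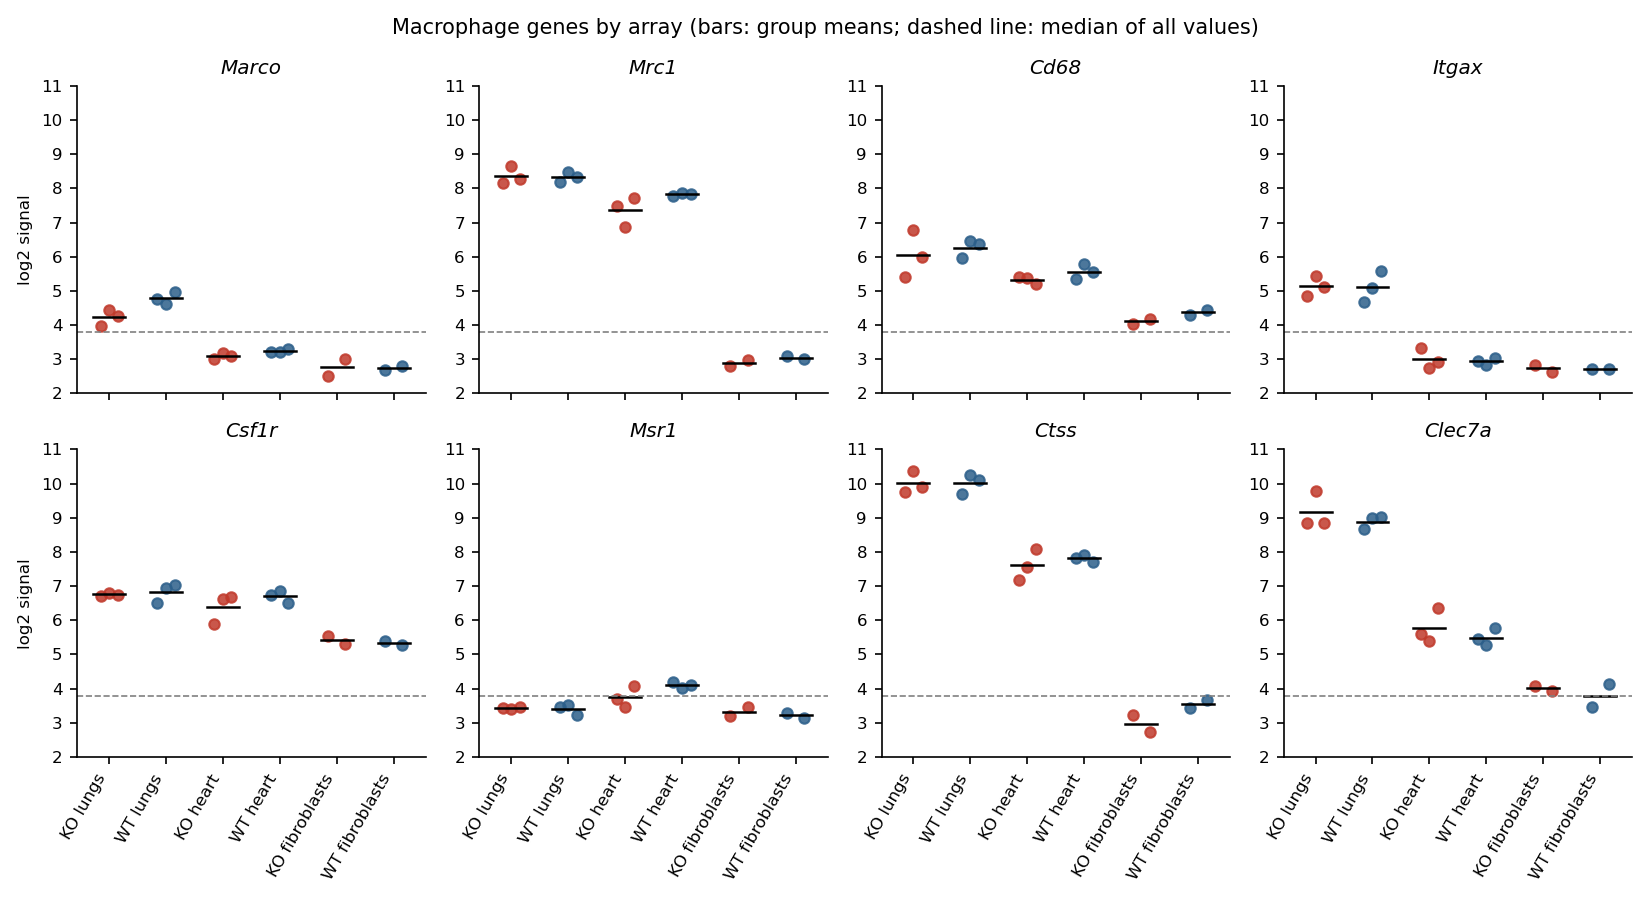
Log2 signal (y axis) of each macrophage gene in the 6 groups (x axis, KO in red and WT in blue). Points are arrays, bars are group means, and the dashed line is the median of all values, 3.79. For Msr1 the probe set with the highest mean is drawn. For Ctss, Clec7a, Itgax, Marco and Mrc1 each lungs array stands above each heart array. Msr1 stands highest in heart by its means, with overlap between heart and lungs arrays. Only Cd68, Csf1r and Clec7a have means above or at the line in fibroblasts.

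The receptors for microbes and debris came first. Marco, a class A scavenger receptor that binds bacteria and inhaled particles, read 3.98, 4.46 and 4.26 in KO lungs against 4.77, 4.61 and 4.97 in WT lungs. In heart it read 3.02, 3.18 and 3.10 in KO and 3.21, 3.20 and 3.29 in WT mice, and in fibroblasts 2.51 and 3.02 in KO and 2.70 and 2.80 in WT samples. Only the lungs lay above the median of all values, and each KO lung was below each WT lung.

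Clec7a, which encodes Dectin-1, the receptor for fungal beta-glucan, read 8.86, 9.78 and 8.84 in KO lungs and 8.66, 8.997 and 9.01 in WT lungs. It read 5.60, 5.38 and 6.36 in KO and 5.45, 5.26 and 5.76 in WT hearts, and 4.07 and 3.94 in KO and 3.47 and 4.12 in WT fibroblasts. The 3 tissues did not overlap, while KO and WT samples overlapped in each of them.

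Mrc1, the mannose receptor CD206, read 8.15, 8.64 and 8.29 in KO lungs and 8.19, 8.49 and 8.33 in WT lungs. Its signal was 7.50, 6.88 and 7.73 in KO hearts, against 7.77, 7.88 and 7.84 in WT hearts. In fibroblasts it was 2.81 and 2.99 in KO and 3.09 and 3.00 in WT samples. Lungs and heart were both far above fibroblasts, each lungs array was above each heart array, and each KO heart was below each WT heart.

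Msr1, the class A scavenger receptor for modified lipoproteins, was low throughout. Its brightest probe set, taken by the mean over all arrays, read 3.71, 3.45 and 4.08 in KO hearts and 4.19, 4.01 and 4.10 in WT hearts, against 3.24 to 3.51 in the 6 lungs and 3.15 to 3.45 in the 4 fibroblast samples. The other 3 probe sets of Msr1 read between 2.24 and 4.07 over the 16 arrays and averaged below the median of all values in each tissue. Only the heart signal of 1 probe set therefore passed the filter on low values.

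The lysosomal members followed. Ctss, the cathepsin that trims the invariant chain of MHC class II, read 9.77, 10.36 and 9.89 in KO lungs and 9.69, 10.25 and 10.12 in WT lungs. It read 7.19, 7.55 and 8.10 in KO hearts and 7.83, 7.90 and 7.71 in WT hearts, and 3.23 and 2.72 in KO and 3.44 and 3.66 in WT fibroblasts. The tissues formed 3 separate levels, with fibroblasts below the median of all values.

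Cd68, a glycoprotein of the lysosomal membrane, read 5.42, 6.78 and 5.99 in KO lungs and 5.96, 6.47 and 6.36 in WT lungs. Hearts gave 5.41, 5.39 and 5.20 in KO and 5.36, 5.78 and 5.55 in WT mice, and fibroblasts 4.04 and 4.18 in KO and 4.31 and 4.45 in WT samples. The KO lungs spanned more than the WT lungs, with SDs of 0.69 and 0.27 (n = 3 each).

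Itgax, the integrin chain CD11c of alveolar macrophages and dendritic cells, read 4.86, 5.43 and 5.12 in KO lungs and 4.68, 5.08 and 5.58 in WT lungs. It lay between 2.75 and 3.32 in KO hearts, 2.85 and 3.03 in WT hearts, and 2.64 and 2.83 in the 4 fibroblast samples. Above the median of all values it was seen in lungs alone.

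Csf1r, the receptor for the growth factors CSF1 and IL-34, read 6.70, 6.81 and 6.76 in KO lungs and 6.50, 6.95 and 7.03 in WT lungs. Hearts gave 5.90, 6.61 and 6.67 in KO and 6.75, 6.85 and 6.50 in WT mice, and fibroblasts 5.55 and 5.32 in KO and 5.40 and 5.29 in WT samples. Lungs and hearts overlapped for Csf1r, as they did for Cd68 and Msr1, and both lay above fibroblasts.

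The tissues were compared in WT samples with limma, adjusting p-values over all kept probe sets of a comparison by the Benjamini-Hochberg method and calling an adjusted p under 0.05. Probe sets were kept when their mean in a compared tissue exceeded the median of all values. Of the members' 11 probe sets, 7 were kept for lungs, 6 for heart and 3 for fibroblasts. The p-values rest on a spread per probe set that was pooled over all 6 groups, KO samples included. Lungs and heart of the same mouse entered this fit as separate samples.

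In WT lungs against WT heart, 7 of the 8 kept member probe sets were called, 6 of them higher in lungs, against a background of 60.2% of all kept probe sets called in either direction and 34.8% called higher. Clec7a was 10.5-fold higher in lungs (log2 difference 3.40, SE 0.29, adjusted p = 2.13e-07). Ctss was 4.61-fold higher (2.20, SE 0.23, adjusted p = 2.05e-06), Itgax 4.49-fold (2.17, SE 0.21, adjusted p = 9.85e-07) and Marco 2.93-fold (1.55, SE 0.15, adjusted p = 1.04e-06). These 4 genes separated the lungs from the heart by more than any other member did. Marco and Itgax, with heart means of 3.17 and 2.97, passed the filter through lungs alone. This favoured a call as higher in lungs for both.

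Cd68 and Mrc1 differed less, by 0.70 (SE 0.26, adjusted p = 0.0305) and 0.51 (SE 0.19, adjusted p = 0.032) in favour of lungs. Both calls were near the threshold. After median centring of the arrays, Cd68 had an adjusted p of 0.0749 and Mrc1 of 0.0866. Without each array in turn, Mrc1 stayed called only when WT lungs 1592 was left out, and Cd68 only when WT lungs 1592 or WT heart 1593 was left out. In KO samples the same difference between lungs and heart was 0.99 for Mrc1 (adjusted p = 0.000409) and 0.73 for Cd68 (adjusted p = 0.0221).

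Msr1 went the other way, with its brightest probe set lower in WT lungs than in WT heart by -0.69 (SE 0.15, adjusted p = 0.00111). In KO samples this difference was -0.31 with an adjusted p of 0.0768. The probe set, with a lungs mean of 3.42, passed the filter through heart alone, which favoured a call as lower in lungs. The other probe sets of Msr1, which were not kept, differed by -0.46, 0.01 and -0.35 in WT samples. Csf1r differed by 0.13 between WT lungs and WT heart (SE 0.20, adjusted p = 0.593) and was not called.

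Against WT fibroblasts, all 7 kept members were called higher in WT lungs, where 60.1% of kept probe sets were called, 28.4% higher and 31.7% lower. Marco, Mrc1, Itgax and Ctss passed the filter through lungs alone, with fibroblast means of 2.76, 2.97, 2.72 and 3.26. The filter therefore favoured a higher call for these 4, and the count of 7 is partly fixed by it. The brightest Msr1 probe set, which was not kept, differed by 0.18 (SE 0.17). Ctss differed by 6.47 (SE 0.26, 88.7-fold, adjusted p = 1.80e-10), Mrc1 by 5.29 (SE 0.21, 39.2-fold, adjusted p = 1.79e-10) and Clec7a by 5.09 (SE 0.32, 34.2-fold, adjusted p = 1.54e-08). The other differences were 2.40 for Itgax, 2.04 for Marco, 1.88 for Cd68 and 1.49 for Csf1r, with adjusted p-values from 2.62e-07 to 8.25e-05. In WT heart against WT fibroblasts, 6 of 6 kept members were called higher, with 63.8% of all kept probe sets called and 27.7% called higher. Mrc1 and Ctss led here, at 4.78 (SE 0.21) and 4.27 (SE 0.26), before Clec7a at 1.70, Csf1r at 1.36, Cd68 at 1.18 and the brightest Msr1 probe set at 0.88. Mrc1, Ctss and Msr1 passed the filter through heart alone in this comparison, which favoured a higher call for them in the same way.

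**Figure D2:**
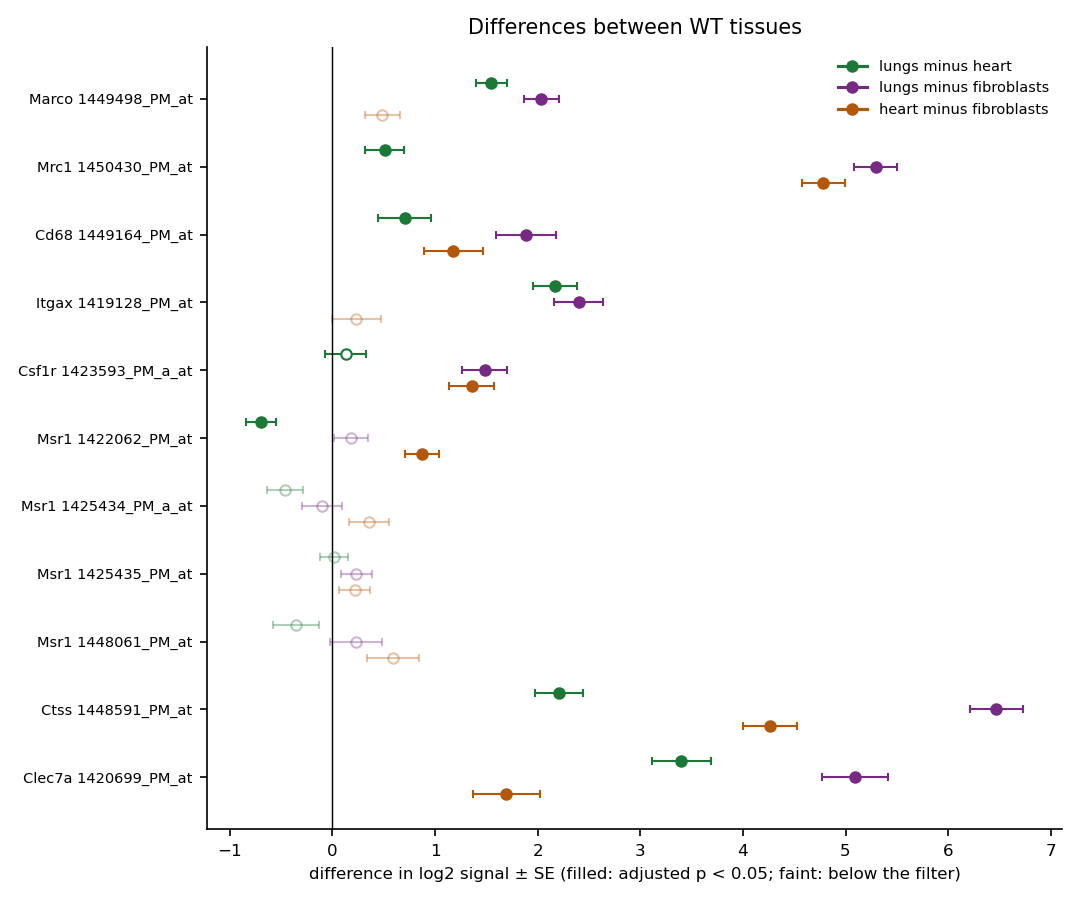
Differences in log2 signal between WT tissues (x axis, mean ± SE from the fit, n = 3 for lungs and heart and 2 for fibroblasts) for the 11 probe sets of the members (y axis). Filled points passed an adjusted p of 0.05, open dark points did not, and faint points were below the filter. Ctss, Mrc1 and Clec7a lie farthest right in lungs minus fibroblasts, and the top row of Msr1 lies left of 0 in lungs minus heart.

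The lungs and heart of WT mice differed least for Csf1r and Mrc1 and most for Clec7a. Of the 24 measured pan-macrophage and myeloid genes, 5 averaged above the median of all values in fibroblasts, and 2 were called lower in WT lungs than in WT fibroblasts. Of the 21 measured genes of the resident macrophage list, which holds C1qa, 9 averaged above that median in fibroblasts. Ptprc, Tyrobp and C1qa, chosen after their values were seen, read low in fibroblasts and do not stand for these lists. Ptprc, the leukocyte antigen CD45, read 2.65 to 2.80 in KO and 2.38 to 2.80 in WT fibroblasts, against 9.04 to 9.29 in WT lungs. Tyrobp, an adaptor of myeloid receptors, read 2.20 to 2.62 in KO and 2.49 to 2.80 in WT fibroblasts, and C1qa, a complement subunit, 2.84 to 3.06 in KO and 2.95 to 3.02 in WT fibroblasts. The Csf1r signal was 5.29 to 5.55 in the same 4 samples, above the median of all values. Csf1, the gene of its ligand, read 11.4 and 11.5 in KO and 11.3 and 10.9 in WT fibroblasts, and was lower in WT lungs than in WT fibroblasts by -3.64 (SE 0.25, adjusted p = 3.50e-08).

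In lungs, none of the 7 kept members was called between KO and WT by limma, where 0.0301% of kept probe sets were called. At an unadjusted p under 0.05 there was 1 of 7, against 6.96% of all kept probe sets. That gene was Marco, with a KO minus WT difference of -0.55 (SE 0.15, n = 3 each, unadjusted p = 0.0031, adjusted p = 0.711). All 3 KO lungs were below all 3 WT lungs, as 6.46% of kept probe sets were. Over 16 alternative settings the difference stayed between -0.66 and -0.33, and the adjusted p between 0.0628, with weights for array quality, and 1.0.

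The remaining lungs differences were small beside their errors. Clec7a gave 0.27 (SE 0.29), Cd68 -0.20 (SE 0.26), Csf1r -0.07 (SE 0.20), Itgax 0.03 (SE 0.21), Mrc1 0.02 (SE 0.19) and Ctss -0.01 (SE 0.23), with adjusted p-values of 0.819 to 0.989. Of the 7 kept members, 3 were higher and 4 lower in KO lungs, with a median of -0.01. Over all kept probe sets 40.0% were higher, and the median was -0.06.

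In heart, 0 of 6 kept members were called (background 0.127%), while 2 of 6 had an unadjusted p under 0.05, against 17.0% of all kept probe sets. Mrc1 had a KO minus WT difference of -0.46 (SE 0.19, unadjusted p = 0.0309, adjusted p = 0.249), without overlap between the groups, as in 13.7% of kept probe sets on the lower side. The difference was -0.21 without the dim array KO heart 1602 and -0.24 after quantile normalization. The brightest Msr1 probe set had a difference of -0.35 (SE 0.15, unadjusted p = 0.0324, adjusted p = 0.253). It was -0.21 without KO heart 1602, and -0.52 with an adjusted p of 0.047 without KO heart 1603, the only setting in which a member was called between the genotypes.

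Csf1r differed by -0.31 (SE 0.20), Cd68 by -0.23 (SE 0.26), Ctss by -0.21 (SE 0.23) and Clec7a by 0.29 (SE 0.29) in heart, with adjusted p-values of 0.433 to 0.677. Without KO heart 1602 these differences were -0.41 for Csf1r, -0.26 for Cd68, -0.17 for Ctss and 0.49 for Clec7a. Without KO heart 1603 they were -0.45, -0.16, -0.45 and 0.0026 in the same order of genes. In all, 5 of the 6 kept members were lower in KO hearts, with a median of -0.27, where 72.2% of all kept probe sets were lower, with a median of -0.16. After quantile normalization 4 of 6 were lower with a median of -0.05, and 52.7% of all kept probe sets were lower. After leaving out KO heart 1602, 5 of 6 were lower with a median of -0.21, and 54.4% of all kept probe sets were lower with a median of -0.02. Lists of other cell types differed between the heart arrays, with 0 genes called in any of them. The cardiomyocyte list, 8 of 9 genes measured, averaged 10.98, 10.55 and 12.85 in KO hearts 1586, 1602 and 1603, against 12.93, 13.20 and 12.51 in WT hearts 1592, 1593 and 1624. Only 4 of its 8 kept genes were lower, with a median difference of -0.02, so the lower means rest on part of the list. Myl2, for example, read 13.91 to 13.98 in KO and 13.83 to 13.92 in WT hearts. All 3 kept neutrophil genes and 3 of 4 kept genes of the alveolar epithelium were higher in KO hearts. All 9 kept fibroblast genes and all 6 mesothelium genes were lower. So were all 3 kept monocyte genes (median -1.34) and all 3 kept red blood cell genes (median -1.07). Of the endothelium list 7 of 8 kept genes were lower, of the adipocyte list 3 of 4 and of the dendritic cell list 2 of 2. The 1 kept gene of the T and NK cell list and the 1 of the B cell list were higher. The means of the fibroblast list (10 of 10 genes measured) were 6.87 to 7.43 in KO and 7.52 to 8.05 in WT hearts, and those of the mesothelium list (6 of 6 measured) 3.91 to 6.38 in KO and 5.50 to 7.37 in WT hearts. Their part in the member values was not tested.

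In fibroblasts, 0 of 3 kept members were called (background 0.0549%), and 0 of 3 had an unadjusted p under 0.05, against 3.33% of all kept probe sets. Cd68 had a difference of -0.27 (SE 0.32, adjusted p = 1.0) with both KO samples below both WT samples. Groups without overlap in either direction made up 1 of the 3 kept members and 32.5% of kept probe sets. Csf1r differed by 0.09 (SE 0.24) and Clec7a by 0.21 (SE 0.35). The genotype effects themselves were compared between tissues, and 0 members were called in any of the 3 comparisons (background 0.0% between lungs and heart, 0.0197% between lungs and fibroblasts and 0.0203% between heart and fibroblasts). At an unadjusted p under 0.05 there were 0 of 8, 1 of 7 and 0 of 6 members, against 7.22%, 4.37% and 7.77% of kept probe sets in the same order of comparisons. The 1 member was Marco, whose effect in lungs minus its effect in fibroblasts was -0.57 (SE 0.24, unadjusted p = 0.035, adjusted p = 0.987).

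**Figure D3:**
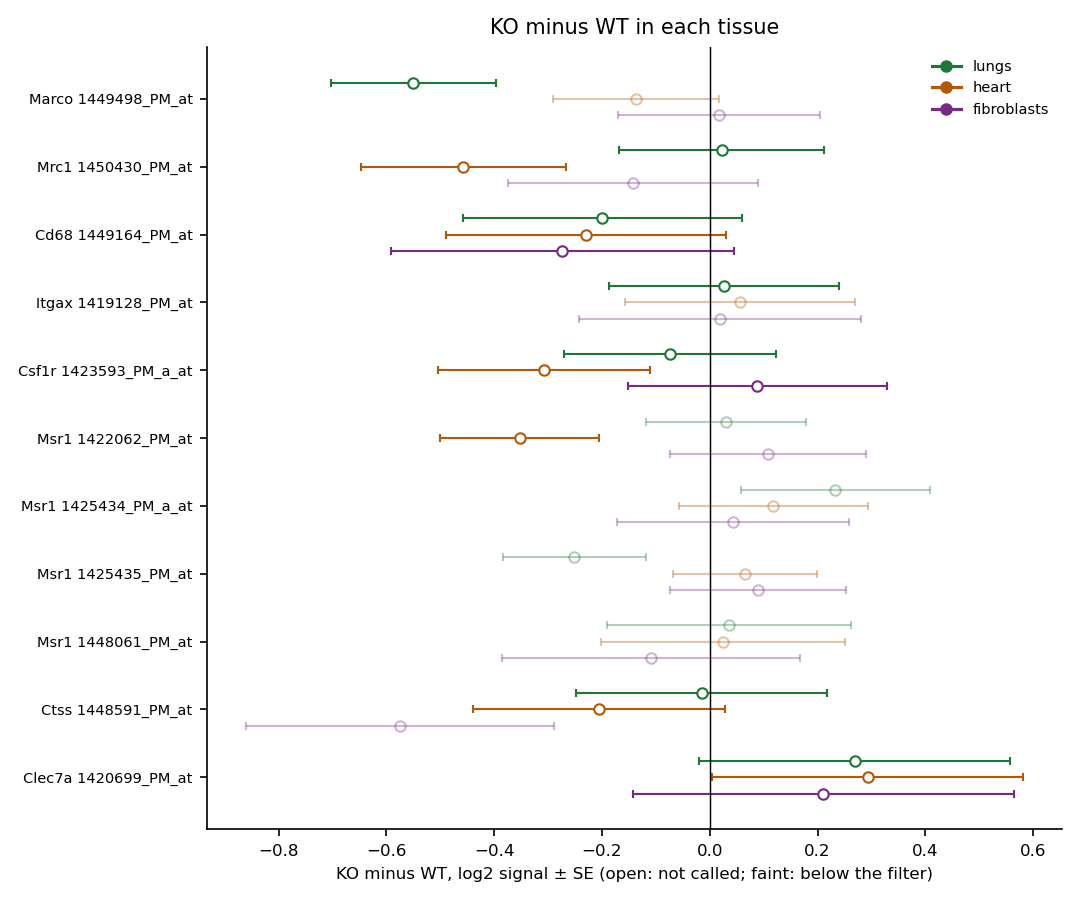
KO minus WT difference in log2 signal (x axis, mean ± SE from the fit) for the 11 probe sets of the members (y axis) in lungs, heart (3 KO and 3 WT mice each) and fibroblasts (2 KO and 2 WT samples). All points are open because none passed an adjusted p of 0.05, and faint points were below the filter. Marco in lungs at -0.55 and Mrc1 in heart at -0.46 are the kept points farthest from 0.

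Most members did not order the 6 lungs arrays by genotype. KO lungs 1602 was the highest of the 6 arrays for Mrc1, Cd68, Ctss and Clec7a, and WT lungs 1624 for Marco, Itgax and Csf1r. The lowest array was KO 1586 for 3 of the 7 kept members and WT 1592 for 4. The mean of the adipocyte list, of which 6 of 10 genes were measured, was 8.39, 3.29 and 7.90 in KO lungs 1586, 1602 and 1603 and 6.44, 3.57 and 3.67 in WT lungs 1592, 1593 and 1624. For Mrc1, Cd68, Csf1r, Ctss and Clec7a, 5 of the 7 kept members, the 3 arrays high in this list were the 3 lowest. How many of all kept probe sets share this order was not counted, so it is not shown to be particular to these genes. Marco instead ordered by genotype, and the 2 lowest arrays for Itgax were WT 1592 and KO 1586.

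The same arrays differed in other cell types. The neutrophil list, 10 of 11 genes measured, averaged 5.70, 4.41 and 5.70 in the KO lungs 1586, 1602 and 1603, against 5.50, 4.61 and 4.09 in the WT lungs 1592, 1593 and 1624. The endothelium list, 8 of 8 measured, averaged 9.11, 9.55 and 9.40 in the KO lungs and 9.14, 9.83 and 9.72 in the WT lungs, in the same order of arrays. Siglecf, a lectin of mouse alveolar macrophages, read 3.54, 5.88 and 4.06 in KO and 4.34, 5.55 and 4.95 in WT lungs. It was also lowest in the 3 arrays high in adipocyte transcripts. The pan-macrophage list was lowest there too, averaging 6.42, 6.51 and 6.39 in KO and 6.33, 6.48 and 6.47 in WT lungs. The alveolar macrophage list did not follow this order, averaging 7.42, 7.75 and 7.66 in KO and 7.63, 7.49 and 7.44 in WT lungs. However, it holds Fabp4, which is a gene of adipocytes too, so its mean also carries adipocyte transcripts. Their part in this mean was not tested. The resident macrophage list was lowest in KO 1602 and WT 1593, averaging 6.88, 6.32 and 6.81 in KO and 6.74, 6.47 and 6.85 in WT lungs. Chil3, a chitinase-like protein secreted by alveolar macrophages, read 10.57, 11.89 and 11.13 in KO and 10.89, 11.28 and 11.10 in WT lungs. With the adipocyte mean as a covariate, the KO minus WT difference was largest for Clec7a, at 0.61 (unadjusted p = 0.00191, adjusted p = 0.489), against 0.27 without the covariate. It was -0.44 for Marco, 0.28 for Itgax, 0.24 for Ctss, 0.22 for Cd68, 0.19 for Mrc1 and 0.04 for Csf1r, and none was called. Without the 3 arrays, which leaves 1 KO and 2 WT lungs and assumes that the single KO lung varies like the other groups, it was 0.78 for Clec7a (unadjusted p = 0.0712, adjusted p = 1.0). For the others it was -0.33 for Marco, 0.37 for Cd68, 0.23 for Mrc1, 0.18 for Ctss, 0.10 for Itgax and -0.18 for Csf1r, again with none called.

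**Figure D4:**
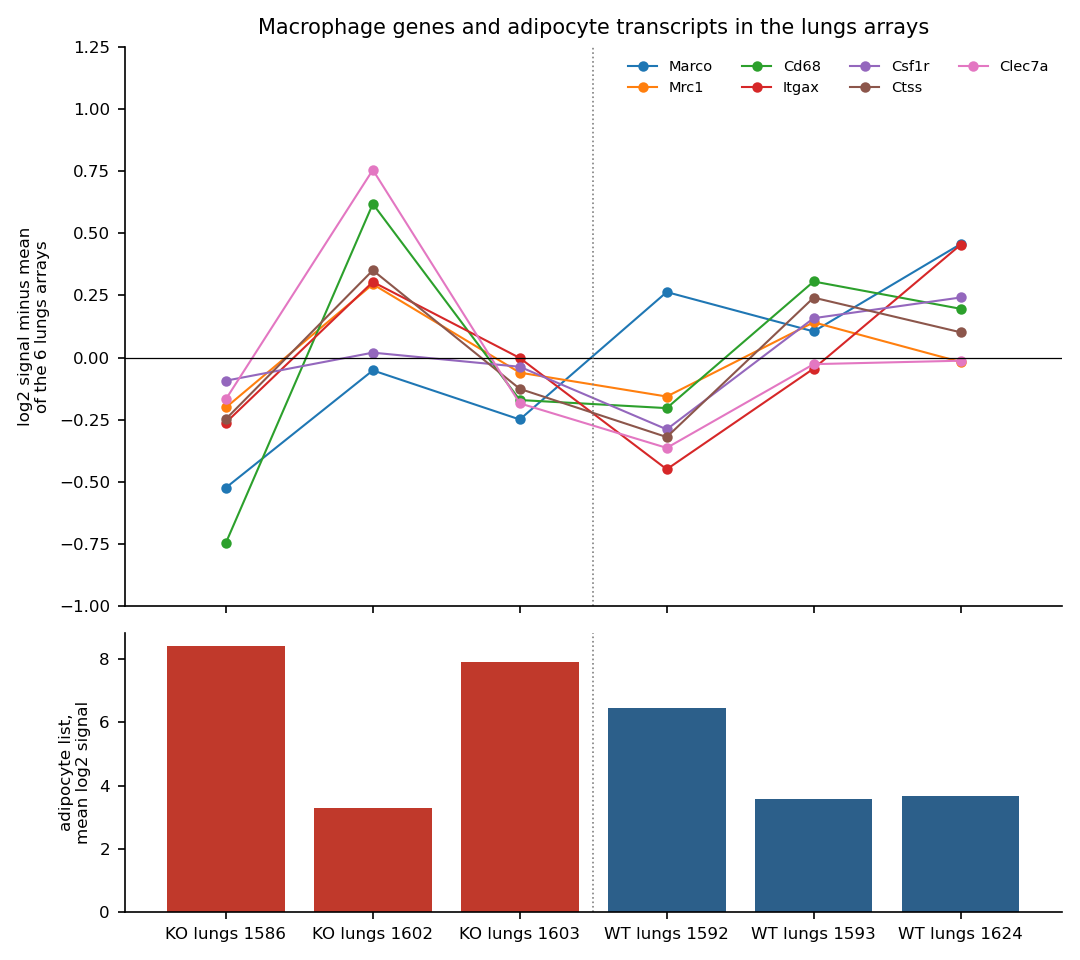
Upper panel, log2 signal of the 7 kept members in each lungs array minus the gene's mean over the 6 lungs arrays (y axis), with the 3 KO arrays on the left and the 3 WT arrays on the right (x axis). Lower panel, mean log2 signal of the adipocyte list in the same arrays. KO 1586, KO 1603 and WT 1592 are high in the list and lie below 0 for most members, while Marco (blue line) separates KO from WT.

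Genes around the members were followed in 8 lists of macrophage genes. None of their kept genes was called between KO and WT in any tissue, and those named are among the 3 of each list with the smallest p. In lungs, the largest differences among these belonged to Fabp4, a lipid-binding protein of both adipocytes and alveolar macrophages, with 1.80 (SE 1.24), and to Ccl17, a chemokine for T cells, with -0.98 (SE 0.26, adjusted p = 0.685). Fabp4 read -0.30 with the adipocyte mean as a covariate. Cd209a, a lectin of monocyte-derived and dendritic cells, differed by -0.72 (SE 0.15, adjusted p = 0.269), and by -0.68 with an adjusted p of 0.0279 under array weights. Lyve1, the hyaluronan receptor of interstitial macrophages and lymphatic vessels, differed by -0.58 (SE 0.32), and Maf, a transcription factor of resident macrophages, by -0.49 (SE 0.14). Ptprc differed by 0.55 (SE 0.24) and Csf3r, the neutrophil growth factor receptor, by 0.65 (SE 0.30). Maf, Lyve1, Ptprc and Csf3r had adjusted p-values of 0.711 to 0.714.

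Against 40.0% of all kept probe sets higher in KO lungs, 5 of 23 kept lysosomal genes were higher (median -0.14), 4 of 17 of the CSF and transcription factor list (median -0.14) and 3 of 14 scavenger and pattern recognition receptors (median -0.10). The counts were 7 of 19 for the pan-macrophage list, 8 of 17 for the alveolar, 9 of 18 for the resident, 4 of 8 for the Dectin-1 and Syk and 7 of 9 for the activated macrophage list, with medians from -0.02 to 0.07.

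In heart, most list genes lay below 0, as most probe sets did. Of the pan-macrophage list, 17 of 19 kept genes were lower in KO hearts (median -0.33), of the resident macrophage list 16 of 18 (median -0.39), of the scavenger and pattern recognition receptors 10 of 11 (median -0.44) and of the lysosomal list 17 of 22 (median -0.21), beside 72.2% of all kept probe sets. Of the alveolar list 8 of 10 were lower, of the Dectin-1 and Syk list 6 of 7, of the CSF and transcription factor list 8 of 14 and of the activated macrophage list 5 of 8. After quantile normalization the counts were 12 of 19 for the pan-macrophage list, 14 of 18 for the resident, 8 of 11 for the scavenger, 13 of 22 for the lysosomal, 5 of 10 for the alveolar, 4 of 7 for the Dectin-1 and Syk, 7 of 13 for the CSF and transcription factor and 4 of 8 for the activated macrophage list, beside 52.7%. Without KO heart 1602 the pan-macrophage list had 13 of 19 lower (median -0.06), the resident list 17 of 19 (median -0.16), the scavenger list 9 of 11 (median -0.23) and the lysosomal list 13 of 22 (median -0.05). The alveolar list then had 8 of 10 lower, the Dectin-1 and Syk list 3 of 7, the CSF and transcription factor list 8 of 14 and the activated macrophage list 5 of 8, beside 54.4% of all kept probe sets. Mrc2, an endocytic collagen receptor, gave -1.02 (SE 0.20, adjusted p = 0.0703), Cebpb, a transcription factor of myeloid cells, -0.54 (SE 0.12, adjusted p = 0.086) and Stab1, a scavenger receptor of resident macrophages, -0.82 (SE 0.22, adjusted p = 0.128). Cd163, the receptor for haemoglobin complexes, gave -1.15 (SE 0.34, adjusted p = 0.153), Lyve1 -1.03 (SE 0.32, adjusted p = 0.161) and Cybb, the catalytic subunit of the phagocyte oxidase, -0.80 (SE 0.26, adjusted p = 0.168). Mertk, a receptor for dying cells, gave -0.62 (SE 0.20, adjusted p = 0.178). Cebpb reached an adjusted p of 0.0483 when the variance prior followed the signal and was made robust to outliers. Without KO heart 1603, the setting in which 1054 probe sets were called over all, Cybb (adjusted p = 0.0167), Mrc2 (0.0259), Mertk (0.0293), Lyve1 (0.0356), Stab1 (0.0394) and Cebpb (0.0478) were called, whereas Cd163 was not (0.0555). Without KO heart 1602 none of these 7 genes was called. The differences were then -0.95 for Mrc2 (adjusted p = 0.173), -0.54 for Cebpb (0.172), -0.61 for Stab1 (0.369), -0.87 for Cd163 (0.434), -0.65 for Cybb (0.46), -0.53 for Mertk (0.463) and -0.76 for Lyve1 (0.465).

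**Figure D5:**
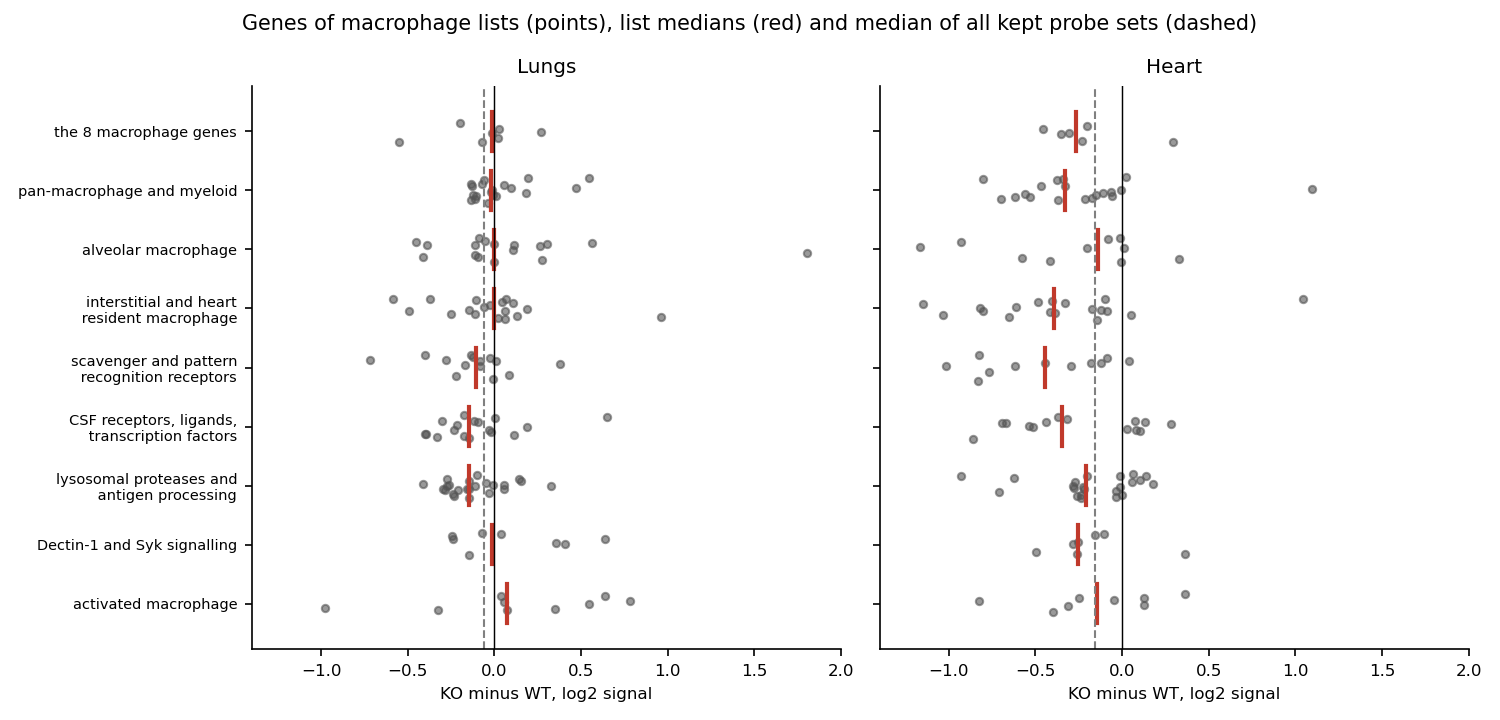
KO minus WT difference in log2 signal (x axis) of the kept genes of each macrophage list (y axis), in lungs on the left and heart on the right. Points are genes with 1 probe set each, red bars are list medians, and dashed lines are the medians of all kept probe sets, -0.06 in lungs and -0.16 in heart. The list medians lie between -0.14 and 0.07 in lungs and between -0.44 and -0.14 in heart, and none of the genes passed an adjusted p of 0.05.

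Between WT lungs and WT heart the macrophage lists differed in their shares of genes called higher and lower. Which cells of the tissues gave these signals was not tested. Of the alveolar macrophage list, 13 of 17 kept genes were called higher and 3 lower in lungs (median 2.22), led by Chil3 at 8.24 (SE 0.24), Plet1, a surface protein, at 5.02 (SE 0.42) and Abcg1, a cholesterol exporter, at 3.78 (SE 0.42). Of the pan-macrophage list, 15 of 22 were called higher and 1 lower (median 0.99), led by the lysozyme gene Lyz2 at 3.24 (SE 0.18), Mpeg1, which encodes a pore-forming protein of phagosomes, at 3.15 (SE 0.27) and Ptprc at 2.76 (SE 0.24). The resident macrophage list was mixed, with 5 of 20 called higher and 8 lower in lungs (median -0.13). Lyve1 was higher in lungs by 2.78 (SE 0.32), whereas Cd163 was lower by -2.23 (SE 0.34). C1qa was also lower in lungs, by -0.95 (SE 0.22, adjusted p = 0.00215), and Adgre1, which encodes a surface marker of mouse macrophages, differed by -0.14 (SE 0.20, adjusted p = 0.58). The background for these counts was 34.8% called higher and 25.4% called lower. All 17 kept alveolar genes passed the filter in lungs but only 10 in heart. The filter favoured a higher call for those passing through lungs alone, so the count of 13 is partly fixed by it. Of the 22 pan-macrophage genes, 19 passed in lungs and 19 in heart, and of the 20 resident genes 18 and 18.

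Of the CSF receptors, ligands and macrophage transcription factors, 12 of 17 were called higher in WT lungs than in WT heart and 1 lower (median 1.08). Runx1, a transcription factor of blood cells, was higher by 4.37 (SE 0.19), Cebpa, which promotes myeloid differentiation, by 4.02 (SE 0.39), and Mitf, a regulator of lysosomal and pigment genes, was lower by -2.94 (SE 0.14). Spi1, the gene of PU.1, was higher by 1.08 (SE 0.27, adjusted p = 0.00321). Of the lysosomal and antigen-processing genes 14 of 23 were called higher and 2 lower (median 1.08), with Npc2, a cholesterol carrier of lysosomes, at 3.12 (SE 0.14) and Ifi30, a lysosomal thiol reductase, at 2.82 (SE 0.20). Of the scavenger and pattern recognition receptors 9 of 14 were called higher and 2 lower. Of the genes of Dectin-1 and Syk signalling, 5 of 8 were called higher and 1 lower, and of the activated macrophage genes 6 of 11 and 1. The median over all kept probe sets was 0.18. Here too the filter favoured lungs, as 17 genes of the CSF list passed it in lungs and 14 in heart. For the scavenger list these counts were 14 and 11, and for the lysosomal list 23 and 22.

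Genes with the pattern most like the members were ranked by Pearson's r with the mean of the z-scored members over the 16 arrays, among 11838 candidate genes. The first were Pdgfb, a growth factor of endothelial cells, and Cybb, both at 0.995, then Rasip1, a regulator of vessel formation, at 0.993. Icam2 and Pecam1, adhesion molecules of endothelium and leukocytes, and Notch4, an endothelial Notch receptor, were also among the first 10, which ended with Hmcn1 at 0.989. The arrays fall into 3 tissues, so these values mostly restate the order of lungs, heart and fibroblasts and carry no p. Over the deviations from the 6 group means, r was 0.938 for Bcl2a1a, a survival gene of myeloid cells whose probe set cannot separate its near-identical copies, 0.937 for Tmod3, which caps actin filaments, and 0.931 for both Atf6, a sensor of stress in the endoplasmic reticulum, and Atp6v1a, a subunit of the proton pump that acidifies lysosomes. Atp6v0e, another pump subunit, followed at 0.925. These arrays share the mixture of cells noted above, and its part in the likeness was not tested.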

How the data were processed

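RNA was measured on 16 arrays (6 groups) from 6 ug of total RNA each, per the labels. The authors deposited a log2 signal for each probe set, and Partek 6.4 is named in the submitters' processing notes. Their background correction, summary and normalization steps are not stated in what was read for this report. That the scale is log2 follows from the range of the values (array medians 3.65 to 3.93), which were used unchanged. Of 45141 entries, 104 controls were set aside. The array annotation names 1 gene for 28898 probe sets, several for 551 and none for 15588, and 28689 matched a current RefSeq symbol.

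A model of 6 group means was fitted to all 16 arrays with limma 3.58.1 in R 4.3.3 (10 residual and 3.53 prior degrees of freedom). Probe sets were kept above the median of all values, 3.79, in a compared tissue (23218 in lungs, 22098 in heart, 21841 in fibroblasts), two-sided tests were adjusted by Benjamini-Hochberg, and the fit was tested on simulated data. No detection call comes with the values, so precision rests on how many arrays each group has.

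The members, gene lists and the 3 lungs arrays named for adipocyte transcripts were chosen with earlier results of these data known. Named were all member probe sets; per list, the 3 genes with the smallest p between genotypes or, between tissues, the 3 largest called differences; and the 10 most alike in pattern. C1qa, Spi1, Siglecf and Adgre1 were also named outside that rule where the text needed them, after their values were seen. Each mouse number was read as an animal. Lungs and heart of a mouse share it, and deviations from the group means correlated with r of 0.0597 to 0.128 with the mouse's own heart, which was the best match for 4 of 6 mice. Alternatives were quantile normalization, median centring, other filters, only the compared tissues, the mouse as a random block, another variance prior, array weights, an adipocyte covariate, and leaving out arrays. The adipocyte covariate was fitted on the arrays of the compared tissue alone.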

Additional observations from a re-analysis of the deposited data

How the results depend on the processing

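The counts of called members stayed within 1.5 times those reported in all settings but 1. In KO against WT heart the count over arrays left out in turn was 0 to 1, with 1 without KO heart replicate 1603, a setting that also called 1054 probe sets over all. In WT lungs against WT heart it was 5 to 7 when arrays were left out in turn. With the mouse as a replicate block the counts were 7 for WT lungs against WT heart, 7 and 6 against fibroblasts and 0 for each genotype comparison, so the block changed no member call. Over all probe sets, KO against WT called 7 in lungs (0 to 129 over the alternatives, the highest with array weights), 28 in heart (2 to 1054) and 12 in fibroblasts (0 to 92). Quantile normalization moved the share of calls that were higher in KO hearts to 44.0%, against 14.3% as deposited, and in KO fibroblasts to 63.6%, against 83.3%. In WT lungs against WT fibroblasts median centring moved that share to 37.1%, against 47.3%. It moved the median of all kept probe sets to 0.06 between WT lungs and heart, against 0.18 as deposited, and quantile normalization moved it to -0.02 between KO and WT hearts, against -0.16.

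Signs turned only in differences that were not called. In lungs these were Ctss under quantile normalization (0.0439), Mrc1 (-0.0217) and Itgax (-0.17) under array weights, and, with the adipocyte covariate, Cd68 (0.22), Csf1r (0.038), Ctss (0.24), Fabp4 (-0.30) and Atp6v0d2 (0.074). Without the 3 arrays high in adipocyte transcripts they were Cd68 (0.37), Ctss (0.18), Atp6v0d2 (0.0703), Ccl8 (-0.37), Clec4a2 (-0.12) and Btk (-0.24). In heart Cd68 turned under quantile normalization (0.0316) and Ccl2 with the adipocyte covariate (0.0467). With arrays left out in turn, the lungs ranges were -0.12 to 0.13 for Mrc1, -0.56 to 0.12 for Cd68, -0.19 to 0.26 for Itgax, -0.24 to 0.0284 for Csf1r, -0.19 to 0.11 for Ctss, -0.0416 to 0.43 for Clec7a and -0.0155 to 0.32 for Tyrobp. In heart they were -0.45 to 0.0046 for Ctss and -0.85 to 0.0066 for Ccl2, and in fibroblasts -0.0295 to 0.21 for Csf1r and -0.12 to 0.54 for Clec7a. The cause was not tested. Marco and Msr1 fell below a filter at the 60th percentile, which removed their calls between tissues by construction. With 2 or 3 arrays a group, differences the size of those seen between genotypes are not resolved here.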

Other observations

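Cultured fibroblasts carried 2 chemokine genes of the activated macrophage list far above lungs and heart. Cxcl1, a neutrophil chemokine, was lower in WT lungs than in WT fibroblasts by -8.53 on the log2 scale (SE 0.52, adjusted p = 1.12e-08), and Ccl2, a monocyte chemokine, by -7.61 (SE 0.39, adjusted p = 1.72e-09). In WT heart against WT fibroblasts the differences were -8.07 for Cxcl1 (SE 0.52, adjusted p = 1.36e-08) and -6.63 for Ccl2 (SE 0.39, adjusted p = 4.61e-09). Retnla, a secreted protein of alternatively activated macrophages and lung epithelium, was higher in WT lungs by 7.39 (SE 0.46, adjusted p = 1.45e-08). Of this list, 8 of 14 kept genes were called higher and 5 lower in WT lungs than in WT fibroblasts, where 28.4% of all kept probe sets were called higher and 31.7% lower. Of these 14, 9 passed the filter in lungs and 7 in fibroblasts. A gene that passed through a single tissue was favoured for a call as higher there. Scara3, a scavenger receptor family member, was lower in WT lungs than in WT fibroblasts by -3.23 (SE 0.58, adjusted p = 0.000285), while Cd36, a receptor for fatty acids and oxidised lipids, was higher by 8.23 (SE 0.13, adjusted p = 4.95e-14).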
